A study of Mus musculus with 2 samples.

Results

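The 10 mouse genes of the alpha crystallin and small heat shock protein family were followed in newborn lens with and without the forkhead transcription factor Foxp1. They are Cryaa, Cryab, Hspb1, Hspb2, Hspb3, Hspb6, Hspb7, Hspb8, Hspb9 and Odf1, chosen by name as the members of this family, out of 20655 genes with a named probe on the array. RNA came from lenses of mice in which Foxp1 was knocked out specifically in that tissue, per the labels (CKO, 1 array), and from lens of wild-type litter mates (WT, 1 array), both at postnatal day 0 and on a mixed C57BL/6 background. The treatment label of both samples reads Foxp1-flox/flox; Pax6-L-Cre, so the groups were taken from the genotype labels, and whether the WT lenses carried the floxed allele or the Cre cannot be told from them. The labels do not say in which cells the Pax6-L-Cre driver acts, or whether lenses of several animals were pooled. Both arrays lay on 1 slide, and position on it and genotype cannot be told apart.

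Small heat shock proteins share a conserved alpha crystallin domain. They assemble into large complexes that hold unfolding proteins in solution without using ATP. In the lens, the products of Cryaa and Cryab form alpha crystallin, which keeps the other crystallins soluble in fibre cells that cannot replace their proteins, and mutations in either gene cause cataract. The other members are better known from stressed cells, muscle and the male germ line.

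Because each genotype had 1 array, no value below has a replicate check, no test was possible, and each difference is a difference between these 2 arrays. A difference is the log2 processed signal of the CKO array minus that of the WT array, each relative to the 75th percentile of its array, and a gene was called higher or lower at 2-fold (1 on the log2 scale). The processed signal is spot brightness after background subtraction, and the error after ± is that given by the scanner software for the spot. No spot of any member was saturated (0 on both arrays). Of all gene spots, 56.9% were well above background on the CKO array and 67.5% on the WT array. Foxp1, the targeted gene, read 970 with its brightest probe on the CKO array and 3460 on the WT array, a difference of -1.82. All 8 measured of 9 lens fibre markers and 6 of 6 lens epithelium markers were above background on both arrays.

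The family covered nearly the whole brightness range of the arrays. Cryab and Cryaa lay among the brightest probes, and Hspb7 and Odf1 lay near background. Of the 10 members, 8 were well above background on both arrays, and 2, Hspb7 and Odf1, were above background on the WT array and not on the CKO array. The order by the brightest probe was Cryab, Cryaa, Hspb1, Hspb2, Hspb3, Hspb6, Hspb8, Hspb9, Hspb7 and Odf1 on both arrays. Brightness depends on the probe as well as on the transcript, so this is an order of probe signals and not of transcript levels. The 2 probes for the same Cryaa transcript differed 1.73-fold from each other on the CKO array and 1.53-fold on the WT array. The step between Cryab and Cryaa was smaller than that, 1.17-fold on the CKO array and 1.16-fold on the WT array, so this pair has no order beyond the spread of probes. The step between Hspb3 and Hspb6, 1.63-fold on CKO and 1.42-fold on WT, was also within it.

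**Figure D1:**
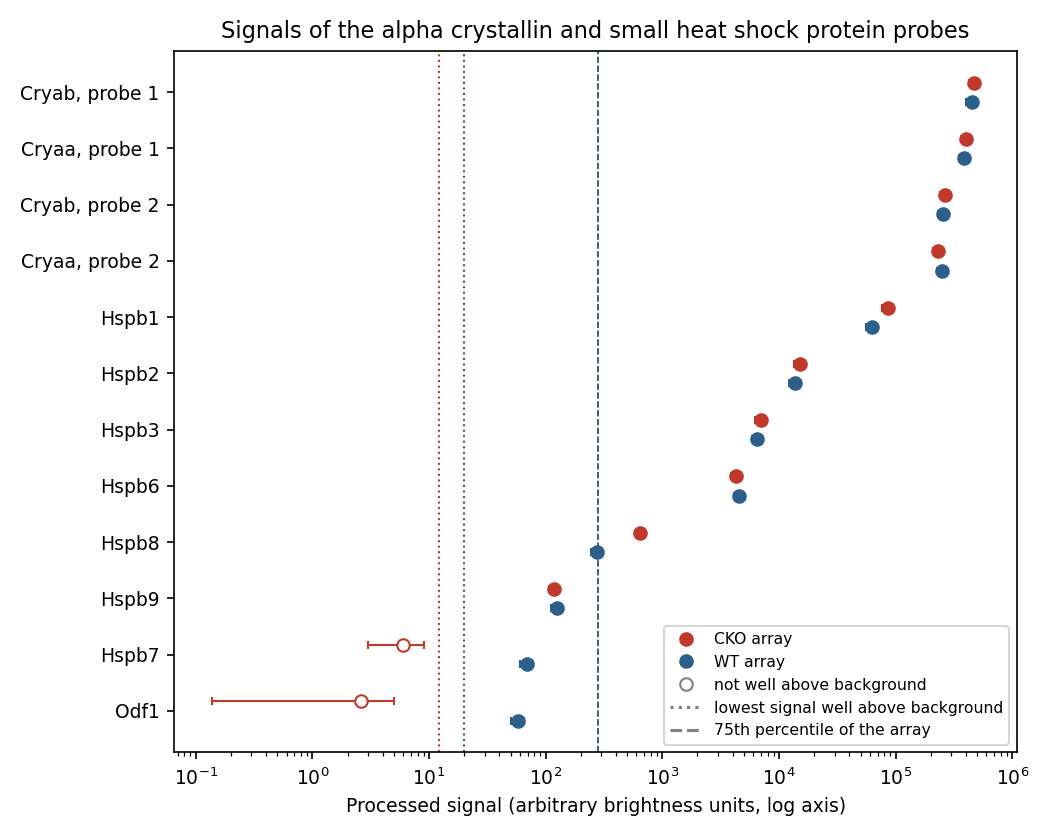
Processed signal of each member probe (horizontal, log axis) on the CKO array (red, upper point) and the WT array (blue, lower point), with the software's error as bars. Most pairs of points nearly coincide, Hspb8 and Hspb1 lie further right on CKO, and Hspb7 and Odf1 lie at 6.03 and 2.59 on CKO, left of the dotted line at 12.1 that marks the lowest signal well above background on that array.

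The alpha crystallins, the most abundant chaperones of lens fibre cells, gave nearly equal signals. The brighter Cryab probe read 468186 ± 46819 on CKO and 447835 ± 44784 on WT, a difference of 0.08. Its other probe read 265068 ± 26507 on CKO and 256392 ± 25639 on WT, a difference of 0.06. Both Cryab probes were thus slightly above 0, by less than the combined software error of 0.20. The brighter Cryaa probe read 401173 ± 40117 on CKO and 384720 ± 38472 on WT, a difference of 0.07. The other Cryaa probe went the other way, with 232039 ± 23204 on CKO and 251167 ± 25117 on WT, a difference of -0.10. The means were 0.07 ± 0.01 for Cryab and -0.01 ± 0.12 for Cryaa (SD over 2 probes each), both within 2-fold. As the probes of Cryaa differed in sign, no direction is given for it.

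These probes were among the brightest on the arrays. The brighter Cryab probe was the probe with rank 2 of 55655 on CKO and rank 4 on WT, and the brighter Cryaa probe had rank 7 on CKO and rank 9 on WT. Their signals were 97.7% and 83.7% of the brightest gene spot on CKO, against 93.8% and 80.6% on WT. The brightest spike-in RNA, an added E1A transcript, read 242382 on CKO and 248155 on WT, a difference of -0.02 over 31 spots. The brighter Cryab and Cryaa probes lay above it, so no added RNA shows how the arrays read at their brightness. The genes whose 2 scaled values lay nearest to those of Cryaa were the gamma crystallins Cryge, Crygb and Crygs, at distances of 0.03, 0.15 and 0.17 on the log2 scale. Those nearest to Cryab were Crygc, Crygf and Cryba2, at 0.06, 0.10 and 0.15. The measure rests on 2 arrays and picks genes of like brightness and like difference. All 14 beta and gamma crystallins, the structural proteins that alpha crystallin keeps in solution, were within 2-fold as well, with a median of -0.03, and the range ran from Crybb3 at -0.13 to Cryba2 at 0.16.

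Hspb8 was the one member called higher. Its product, also known as HSP22, works with the co-chaperone BAG3 to deliver damaged proteins to autophagy. Its single probe read 648 ± 64.9 on CKO and 273 ± 27.7 on WT, a difference of 1.26 or 2.39-fold. The difference was larger than the combined software error of 0.21 and the spot SD of 0.12 for this brightness, which cover neither animals nor labelling. Among all 14254 genes measured on both arrays, 1.02% were at least 2-fold higher, against 1 of the 8 members measured. In the brighter 7127 of these genes the shares called were 0.842% higher and 0.393% lower. Of the 3633 genes with a mean signal within 2-fold of that of Hspb8, 26 had a difference as high or higher, Hspb8 included, and the median of these genes was 0.05. The spike-ins on either side of its mean signal over both arrays read 266 on CKO and 280.4 on WT, and 485 on CKO and 566 on WT, differences of -0.11 and -0.19. Hspb8 remained at least 2-fold higher under 10 of 10 alternative settings, from 1.13 to 2.34. Dropping or tightening the filter, taking the brightest probe and keeping outlier spots left it at 1.26. These settings cannot move a value from 1 spot that passes the filters, so they give no check of it. The 3 genes nearest to it by their 2 scaled values were Trib2, Sh3bp5 and Plk5, whose differences of 1.03, 0.99 and 1.28 are fixed by that choice.

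Hspb1 read higher too, below the 2-fold limit. It encodes HSP25, the mouse form of HSP27, a stress-induced chaperone that also acts on actin filaments. Its single probe read 85407 ± 8541 on CKO and 62466 ± 6247 on WT, a difference of 0.46 or 1.38-fold. The difference was more than the combined software error of 0.20 and the spot SD of 0.08 at this brightness. Of the 189 genes within 2-fold of its brightness, 4 were as high or higher, Hspb1 included, and their median was 0.01. It lay above 0 under all 10 alternatives, from 0.34 to 1.54. As for Hspb8, the settings for filters, brightest probe and outlier spots could not move it from 0.46. Its nearest gene was Gstp2, a glutathione transferase, at a distance of 0.05.

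Hspb2, Hspb3 and Hspb6, known mainly from skeletal, cardiac and smooth muscle, were clearly measured in lens and close to equal on both arrays. Hspb2, first described as a binding partner of the myotonic dystrophy kinase, read 15010 ± 1501 on CKO and 13588 ± 1359 on WT, a difference of 0.16. Hspb3, which forms complexes with the product of Hspb2, read 6978 ± 698 on CKO and 6485 ± 648 on WT, a difference of 0.12. Hspb6, or HSP20, which promotes relaxation of smooth muscle when phosphorylated, read 4270 ± 427 on CKO and 4582 ± 458 on WT, a difference of -0.09. None of the 3 differences passed the combined software error of 0.20. Relative to the median of all genes under the same setting, Hspb2 lay between 0.05 and 0.32, Hspb3 between -0.03 and 0.28 and Hspb6 between -0.25 and 0.07 over the 10 alternatives. In the RefSeq annotation Hspb2 lies inside the span of Cryab, so the readings of this pair are uncertain as separate measurements. Hspb6 overlaps Lin37, whose difference was -0.03.

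Muscle markers differed in what they showed. Of 10 skeletal muscle markers, 6 were measured on both arrays, Des was above background on WT and not on CKO, and the master regulators Myod1 and Myog and the creatine kinase Ckm were above background on neither. Of the 6, 3 lay above and 3 below 0, and the brightest probes of the 10 summed to 346 on CKO and 474 on WT. Tnnt3, a fast muscle troponin, was the marker called lower, with a difference of -1.22. Its brightest probe read a dim 25.5 on CKO and 59.2 on WT, and spike-ins this dim also read lower on CKO. Of 7 smooth muscle and pericyte markers, 4 were measured, Myh11 was above background on WT and not on CKO, Cnn1 and Myocd on neither, and the sum was 4695 on CKO and 1654 on WT. Acta2, smooth muscle actin, made up most of that sum and was called higher, with 3865 on CKO and 914 on WT, a difference of 2.09. Of the other measured markers of this list, Tagln lay at 0.50, Rgs5 at 0.05 and Cspg4, at dim signals, at -0.97. The part of these cells in the readings of Hspb2, Hspb3 and Hspb6 was not tested.

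Hspb9, a testis member, was dim and close to equal on both arrays. It read 118 ± 12.1 on CKO and 124 ± 13.2 on WT, a difference of -0.06, which was 0.16 with quantile and 0.11 with loess scaling. Over all 8 members measured on both arrays, 5 lay above and 3 below 0. Their median was 0.09, against 0.01 over all 14254 genes, of which 50.9% lay above 0. Over the brighter 7127 of these genes the median was 0.08, close to that of the members. None of the 8 was at least 2-fold lower (0), against 5.86% of all genes measured and 0.393% of the brighter 7127. The dim members Hspb7 and Odf1 are not among the 8. Of all genes, 146 were called higher and 835 lower, and with loess scaling 427 higher and 279 lower.

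Hspb7 and Odf1, the dimmest members by probe signal, were well above background on the WT array alone. Hspb7, also called cvHsp, is known from heart and skeletal muscle, and Odf1 encodes an outer dense fibre protein of the sperm tail. The Hspb7 probe was printed 10 times on each array. Its spots read 2.43 at the lowest, 6.06 at the median and 13.2 at the highest on CKO, and 55.3, 70.8 and 81.6 on WT. The spots of the arrays did not overlap, and 1 of 10 was well above background on CKO against 10 of 10 on WT. These spots are repeat readings of the same RNA and not replicates. Hspb7 was at least 5.65-fold lower on CKO, set against 12.1, the lowest signal of a probe well above background on that array. Odf1 read 2.59 ± 2.46 on CKO and 57.7 ± 7.11 on WT with its single spot and was at least 4.71-fold lower. Negative control spots had a median of 2.76 on CKO and 4.72 on WT, so the Odf1 signal on CKO was at their level.

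Added RNA of the same brightness on WT also read lower on CKO. The spike-in probe (+)E1A_r60_a104 read 6.79 on CKO and 52.4 on WT, with 0% of 32 spots well above background on CKO and 100% on WT. The next brighter one, (+)E1A_r60_a107, read 38.0 on CKO and 80.2 on WT and was above background in every spot of both arrays. On WT the signals of Hspb7 and Odf1 lay between these 2 spike-ins. On CKO Hspb7 read 6.03, a little below the dimmer one, and Odf1 read 2.59, further below it. The dimmer spike-in had a difference of -3.13, against -3.50 for Hspb7 and -4.46 for Odf1, with CKO values near background. Of all named genes, 8.76% were above background on WT and not on CKO, and 92.4% of those were at least 2-fold lower as a bound, as Hspb7 and Odf1 were. Of the 3810 probes with a WT signal near that of Hspb7 (within 0.25 on the log2 scale), 27.0% were not above background on CKO and 7.22% read as low as Hspb7 there or lower. For Odf1 these shares were 33.6% and 0.984% of 4167 probes. The file headers mark the spike-in detection limit of the WT array as out of range (1 of 10 quality measures) and none of the CKO array (0 of 10).

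Markers of male germ cells and skeletal muscle were dim, and no list of heart markers was examined. Of 7 male germ cell markers, 2 were measured on both arrays, Prm1 and Ldhc were above background on WT and not on CKO, and Tnp2, Akap4 and Spata18 were above on neither. Their sum was 62.9 on CKO and 249 on WT. Tnp1, a transition protein of sperm chromatin, was called lower (2.01-fold lower on CKO). It read 18.4 on CKO and 37.3 on WT, and spike-ins this dim also read lower on CKO. The skeletal muscle gene Des, encoding desmin, read 9.36 on CKO and 61.4 on WT. Of the 6 measured skeletal muscle markers, Tnnc2 at 0.16, Mylpf at 0.21 and Myh8 at 0.22 lay above 0. Tnnt3 at -1.22, Acta1 at -0.91 and Myh3 at -0.67 lay below 0, and the median of the 6 was -0.25. In RNA of whole lens, fewer cells of a type and less RNA per cell cannot be told apart, and the part of either in these readings was not tested. Loess, which removes the trend with brightness, brought the bounds to -1.51 for Hspb7 and -1.02 for Odf1 on the log2 scale, and normexp background correction brought them to -0.96 and -0.95, short of 2-fold.

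**Figure D2:**
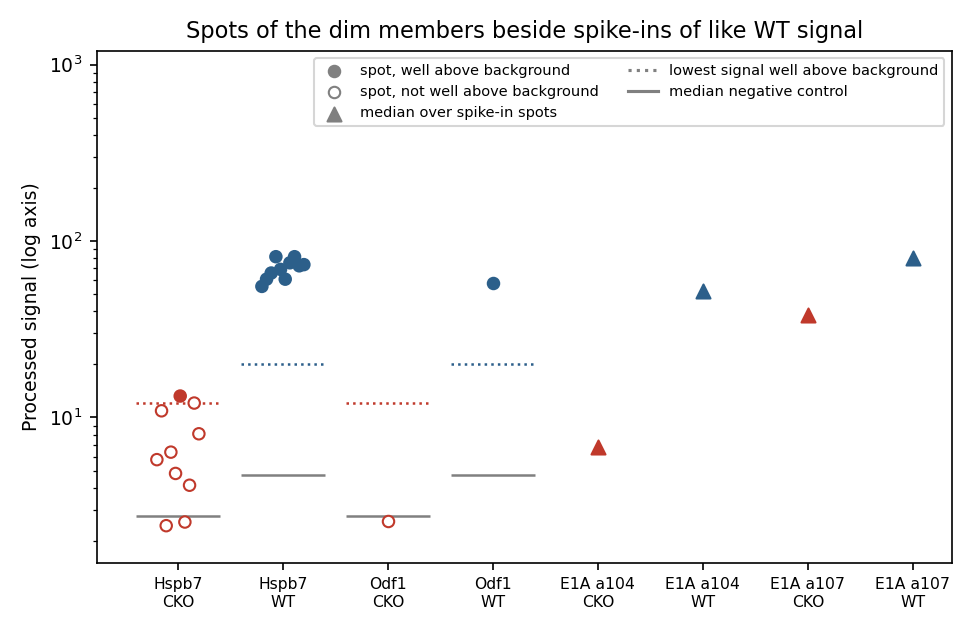
Processed signal (log axis) of the 10 Hspb7 spots and the Odf1 spot on CKO (red) and WT (blue), with open circles for spots not well above background, and medians of the E1A spike-ins a104 and a107 as triangles. The Hspb7 spots lie between 2.43 and 13.2 on CKO and between 55.3 and 81.6 on WT. The spike-in a104 shows a somewhat smaller step, and a107 a smaller one still.

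**Figure D3:**
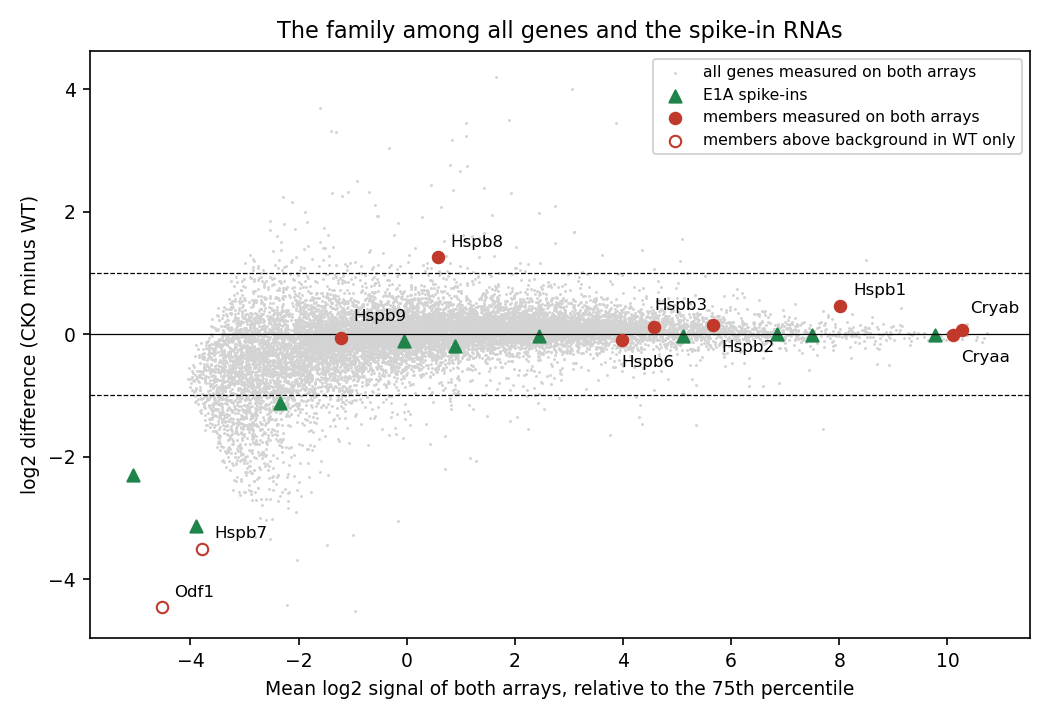
log2 difference (CKO minus WT) against mean log2 signal relative to the 75th percentile, for all 14254 genes measured on both arrays (grey), the spike-ins (green triangles) and the family (red, open for the members above background on WT alone). The dim end of the cloud bends below 0 together with the 3 dimmest spike-ins. Hspb7 lies below that end, and Odf1 lies below and to the left of it. Hspb8 and Hspb1 lie near the upper edge at their brightness.

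The upstream bases of 3 members are shown to set the 2 members with the highest differences, Hspb8 and Hspb1, beside Cryaa, at -0.01. RefSeq promoters (build GRCm38.p6) were matched by symbol for 7 of the 10 members with 8 starts, and the 250 bases before each start were searched on both strands for the letters of known sites. Heat shock factors bind repeats of the unit GAA and its complement, searched here as the facing pairs GAANNTTC and TTCNNGAA. The forkhead core was searched as TGTTTAC and the core of the site of Maf factors as TGCTGA. Capitals mark a match to any of these.
Hspb8 (chr5:116422865-116423114, minus strand): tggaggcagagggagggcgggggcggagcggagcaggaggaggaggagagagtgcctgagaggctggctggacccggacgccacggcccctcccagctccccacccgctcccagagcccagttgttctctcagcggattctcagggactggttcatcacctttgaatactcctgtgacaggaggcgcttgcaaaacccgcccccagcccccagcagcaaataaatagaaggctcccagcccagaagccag
Hspb1 (chr5:135887669-135887918, plus strand): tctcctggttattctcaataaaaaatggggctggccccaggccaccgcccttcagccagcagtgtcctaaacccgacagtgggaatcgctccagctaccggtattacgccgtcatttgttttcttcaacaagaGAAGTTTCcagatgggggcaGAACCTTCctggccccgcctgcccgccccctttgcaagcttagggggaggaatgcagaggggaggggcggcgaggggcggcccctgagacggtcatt
Cryaa (chr17:31677681-31677930, plus strand): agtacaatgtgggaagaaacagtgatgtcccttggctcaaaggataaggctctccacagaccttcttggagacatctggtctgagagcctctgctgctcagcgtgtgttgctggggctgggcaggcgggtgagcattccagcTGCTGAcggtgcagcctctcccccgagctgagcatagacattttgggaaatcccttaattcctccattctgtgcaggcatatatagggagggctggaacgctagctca

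Facing heat shock units occurred in 3 of the 8 windows and in 12.8% of all 32851 promoter windows of this length. Hspb1 held 2 of them, GAAGTTTC and GAACCTTC, beginning 117 and 97 bases before the start. Hspb6 held GAAGTTTC at 120 bases before the second of its starts, and Hspb3 held GAATTTTC at 224. Hspb8 held 0 in this window, although GAAGTTTC stands within the 50 bases after its start, and with those bases included 15.1% of all promoters held a pair. The form with 3 units in a row was found in 0 of the 8 windows and in 0.466% of all promoters. The Maf core occurred in the Cryaa window alone among the members, 108 bases before the start, and in 16.1% of all promoters. The forkhead core occurred in 0 of the 8 windows and in 3.17% of all promoters. A match describes these letters and does not show a bound site.

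Heat shock factors and the other heat-inducible chaperones were within 2-fold with 1 exception, Hspa1a. Of 17 genes, 16 were measured, 0 were at least 2-fold higher, 1 was lower, 12 lay above 0 and the median was 0.09, close to that of the family. Hsf4, the heat shock factor required for lens fibre maturation, read 12283 on CKO and 9845 on WT, a difference of 0.33. Hsf1, the main stress-responsive factor, had a difference of 0.29. Hsph1, an HSP110 family nucleotide exchange factor, was highest with 0.67 as the mean of 2 probes at 0.42 and 0.93. Hspa1a, an inducible HSP70, was the gene called lower, at a dim 17.7 on CKO and 43.8 on WT, a difference of -1.30. Spike-ins this dim also read lower on CKO, and the near-identical copy Hspa1b makes the reading uncertain.

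Partners of HSPB8 were within 2-fold. All 7 were measured, 5 lay above 0, 0 passed 2-fold in either direction and the median was 0.11. Bag3, the co-chaperone that binds HSPB8 directly, read 1373 on CKO and 1008 on WT, a difference of 0.46. Sqstm1, the autophagy receptor p62, had a difference of 0.31, and Map1lc3b, the autophagosome protein LC3B, 0.21. Synpo2 was lowest at -0.34 at dim signals, and Hspa8, the constitutive HSP70 of this complex, lay at 0.04.

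Genes listed as regulators of the alpha crystallin promoters were also within 2-fold. All 13 were measured, with 0 called in either direction, 8 above 0 and a median of 0.03. Maf, the large Maf factor that activates crystallin genes, read 17393 on CKO and 18528 on WT, a difference of -0.08. Pax6 lay at -0.10 and Prox1 at 0.03. Sox2 was highest at 0.55, Foxe3 lay at 0.34 and Hsf4 at 0.33, and Sox1 was lowest at -0.27. Among the intermediate filament genes whose products alpha crystallins bind, Vim, Bfsp1 and Bfsp2 lay at 0.06, -0.04 and 0.04, Nes at 0.49 and Gfap at -0.57. Of these 6 genes 5 were measured, 0 passed 2-fold, and the median was 0.04.

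**Figure D4:**
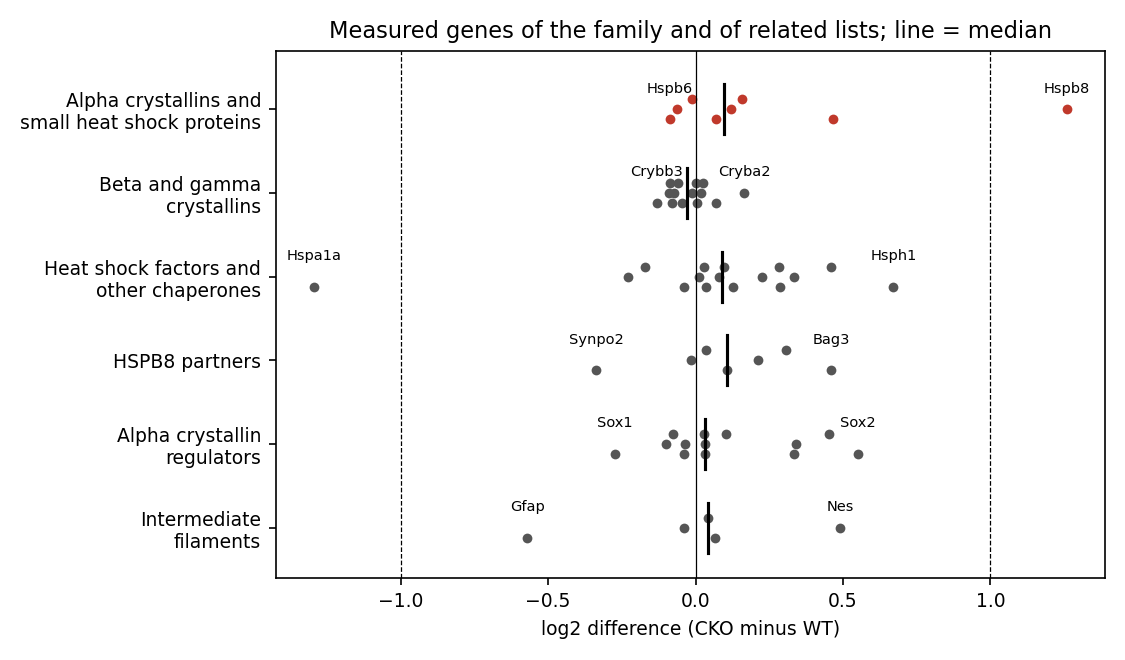
log2 differences (CKO minus WT, horizontal) of the measured genes of the family (top row, red) and of 5 related lists, with the median of each as a vertical line and the 2-fold limits dashed. Hspb8 at 1.26 and Hspa1a at -1.30 are the genes beyond the limits, and the medians run from -0.03 for beta and gamma crystallins to 0.11 for the partners of HSPB8.

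Markers of other cells differed between the arrays beside the higher readings of Hspb8 and Hspb1. Of 8 retina and neuron markers, 8 were measured and 7 lay above 0. The median was 0.67, and the sum of the brightest probes was 6026 on CKO and 3777 on WT. Pou4f2, a factor of retinal ganglion cells, was 2.53-fold higher. Blood vessel markers had a median of -0.01 over 4 genes. For smooth muscle and pericyte markers it was 0.27 over 4 of 7, with Acta2 at 2.09 and Cspg4 at -0.97. Macrophage markers had a median of -0.27 over 2 of 4, red cell markers -0.30 over 5 and pigment epithelium markers -0.37 over 5 of 6. Surface epithelium markers had a median of -0.96 over 3 of 4 dim genes. Of these, Krt13 was called lower at -1.43, with 23.5 on CKO and 63.8 on WT. Spike-ins this dim also read lower on CKO. Lens fibre markers had a median of -0.03 and lens epithelium markers of -0.20. The part of these cells in the readings of Hspb8 and Hspb1 was not tested.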

How the data were processed

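Total RNA of newborn mouse lens was labelled with Cy3 and read on 1-colour Agilent SurePrint G3 arrays, 1 array per genotype, so the number of arrays limits the precision. The values the authors deposited are spot intensities (linear), which Agilent Feature Extraction 10.7.3.1 made from scans at 3 microns with an mm9 layout, per the file headers. The authors' deposited yes or no flags (other) mark outliers, saturation and signal above background. No scaling between arrays is recorded there.

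From these, control and outlier spots were left out, log2 was taken, the 75th percentile of each array (279.9 on CKO, 282.6 on WT) was subtracted, and repeat spots were averaged. Probes with over 50% of spots well above background on both arrays were measured. Measured probes of a gene were averaged. Unversioned RefSeq accessions were matched to GRCm38.p6 symbols, which named 27225 of 55655 probes. No coordinates of that table are given beside array values. A member above background on 1 array was given a bound. Spot noise came from 281 probes with at least 5 spots.

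The members and lists were chosen with earlier results of these data known. All 10 members are named, as is every measured list gene 2-fold apart, and for some members the 3 genes nearest in signal. The rule for the lists was to name the up to 4 largest differences of each. It was followed for some lists only, and for others, such as retina and neuron markers, fewer are named. Further genes, such as Hspa8, Hsf1, Maf, Pax6, Prox1 and Hspa4, were chosen after their values were seen. A gene that the rule names among the regulators is not reported here. The per-gene differences and 2-fold calls were checked beforehand with simulated data. Bounds, spot noise, list counts, nearest genes, motif searches and the alternative settings were not part of that check. Python 3.11.15, statsmodels 0.14.6 and limma 3.58.1 were used. Alternatives were scaling (array median, measured probes, quantile, loess), normexp (offset 50) and local background subtraction on median signals, since the mean signal was not used here, filters on dim probes, the brightest probe, and outlier spots kept.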

Additional observations from a re-analysis of the deposited data

How the results depend on the processing

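Scaling by the array medians shifted the median of all genes to 1.08, against 0.01 in the main setting, and under it 7 members passed the 2-fold limit upward, with a family median of 1.17. Relative to the median of all genes, Hspb8 lay between 1.13 and 1.42 and Hspb1 between 0.39 and 0.63 over the 10 alternatives. Without a filter on background, 2 members, Hspb7 and Odf1, counted as at least 2-fold lower. The number of members at least 2-fold higher stayed at 1 under the other 9 alternatives, and the median of the members stayed between -0.03 and 0.15 there. The tally of 5 members above 0 and 3 below moved with the scaling, to 3 and 5 with the 75th percentile over measured probes, which set the median of all genes at -0.12, and to 7 and 1 with quantile and with loess. The bounds of Hspb7 and Odf1 ran from -2.62 and -2.36 to -0.96 and -0.95, the last with normexp. With the flag for a positive and significant signal, 10 members counted as detected on both arrays, against 8. The signal order of the 10 members was the same under all 3 alternatives tried. Over all genes, the calls of 146 higher and 835 lower became 8724 and 101 with the array median, 102 and 1082 with measured probes, 805 and 224 with quantile, 427 and 279 with loess, 72 and 99 with normexp, 108 and 610 with local background, 293 and 4466 without a filter, and 89 and 54 with the stricter one. The cause of these shifts was not tested. No paired analysis was possible because each group held 1 array, and for the same reason no array could be left out. Signal over background limits Hspb7, Odf1 and Hspb9.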

Other observations

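Probes of the same gene did not always read alike among chaperones outside the family. Hspa4, an HSP110 family chaperone, was read by 3 probes with differences from -0.96 to 0.31, while Hspa8 and Hspe1, also with 3 probes, ranged from -0.08 to 0.10 and from -0.13 to 0.20. Of the 10 family members, 8 rest on 1 probe, Hspb8 and Hspb1 among them, so this kind of disagreement could not be seen for them.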
